A study of Mus musculus with 8 samples.

Results

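The difference between the LPS responses of Cullin 3 knockout (KO) and wild-type (WT) macrophages was measured for each gene as the log2 change with LPS in KO cells minus the log2 change with LPS in WT cells. All 8 arrays of the series enter it, 2 in each of 4 groups: WT untreated, WT with LPS, KO untreated and KO with LPS. A value below 0 means that the gene responded more positively in WT than in KO cells, and a value above 0 the opposite. The test was made on this difference only, and changes within a genotype are given as group means, with no test. All 4 groups were bone marrow-derived macrophages (BMM) of female mice aged 6 to 8 weeks, cultured for 6 days with L929-conditioned medium, and the LPS groups received lipopolysaccharide for 6 h. The genotype is given as Cullin 3 wildtype or knockout, with no allele, Cre driver or promoter named. The labels do not say whether the 2 replicates of a group came from separate animals or cultures, and the design text says that the array experiment was performed once, so every p-value below measures the spread between these samples only, which may be technical.

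LPS, a cell-wall component of Gram-negative bacteria, binds Toll-like receptor 4. The receptor signals through the adaptor MyD88 to NF-kappaB and MAP kinases, and through the adaptor TRIF to interferon beta, which acts back on the cell and induces the interferon-stimulated genes. Cullin 3 is a scaffold protein on which a large group of ubiquitin ligases is built. With its adaptor KEAP1 it marks NRF2, the transcription factor of antioxidant and detoxification genes, for degradation.

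The 8 arrays shared 1 slide and 1 scan, with the WT arrays in 1 row of the slide and the KO arrays in the other, so row and genotype cannot be told apart. The 75th percentile of the signal lay between 678 and 1557, and 60.9% to 73.7% of spots were well above background. Mean log2 signal of the spike-in spots was 11.43 and 11.46 on WT and 11.81 and 11.56 on KO untreated arrays, 10.87 and 10.70 on WT LPS arrays and 11.07 and 11.17 on KO LPS arrays. It was thus lower with LPS, and higher on both KO than on both WT arrays in each state. With each array centred on these spots 253 genes were called lower and 168 higher. All 12 macrophage markers were well above background on 7 of the 8 arrays and 11 of the 12 on the other, a KO untreated array. In bulk RNA, fewer cells of a type and less RNA per cell cannot be told apart.

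Cul3 itself was measured first. Its single probe (chromosome 1, 80268109 to 80268168, mm9) read 1.77 and 1.79 in WT untreated, 2.40 and 2.42 in WT LPS, 1.38 and 1.28 in KO untreated and 1.90 and 1.77 in KO LPS samples, as log2 signal relative to the 75th percentile of the array. Within each state, untreated or LPS, the KO readings were lower than the WT readings. The labels do not give the deleted stretch, so whether this probe lies in it is unknown and the remaining signal does not measure the loss. The LPS response of Cul3 was 0.63 in WT and 0.51 in KO cells, a difference of -0.13 (95% interval -0.54 to 0.29, adjusted p = 0.707). Its sign turned to 0.05, 0.03, 0.06 and 0.15 with quantile normalization, median centring, spike-in centring and no scaling.

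Across the genome, lower responses in KO cells were called more often than higher ones. Of 27945 genes tested, 923 had a lower and 347 a higher response in KO cells (limma, adjusted p under 0.05), or 3.3% and 1.24% of the genes. The smallest called difference was 0.81. Of the called genes, 753 lower and 276 higher ones were well above background on all 8 arrays, and the rest were not. Up and down below are the signs of the mean changes, however small. Of the 923 lower genes, 641 were up with LPS in both genotypes and less so in KO cells, 197 were up in WT and down in KO cells, and 85 were down in both and more so in KO cells. Of the 347 higher genes, 196 were down in both genotypes and less so in KO cells, 84 were down in WT and up in KO cells, and 67 were up in both and more so in KO cells. The most common pattern in both directions was thus a response of the same sign and smaller size in KO cells. In 703 of the 923 lower genes and 291 of the 347 higher genes the gap between genotypes was larger with LPS than without it.

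The median difference over all genes was -0.17 and not 0, and the balance of the directions moved with the scaling. The higher genes were 27.3% of those called here, 45.0% with quantile normalization, 45.8% with median centring, 39.9% with spike-in centring and 54.5% in the log2 values that the authors deposited without scaling. Under quantile normalization, median centring, spike-in centring and normexp background correction alike, 222 genes were called lower and 121 higher. Counts also depended on single arrays. Without WT untreated replicate 1 or 2 the lower genes numbered 4 and 7 and the higher genes 0 and 1. Without WT LPS replicate 1 they numbered 1275 and 670, and without its replicate 2, 236 and 81. Without KO untreated replicates 1 and 2 they were 60 and 12, and 42 and 7. Without KO LPS replicates 1 and 2 they were 79 and 23, and 25 and 6. With slide column as a covariate limma called 0 genes in either direction, with 4453 at an unadjusted p under 0.05, against 6166 without it. Without either WT untreated replicate, 1 of the 38 gene lists described below kept a call.

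**Figure D1:**
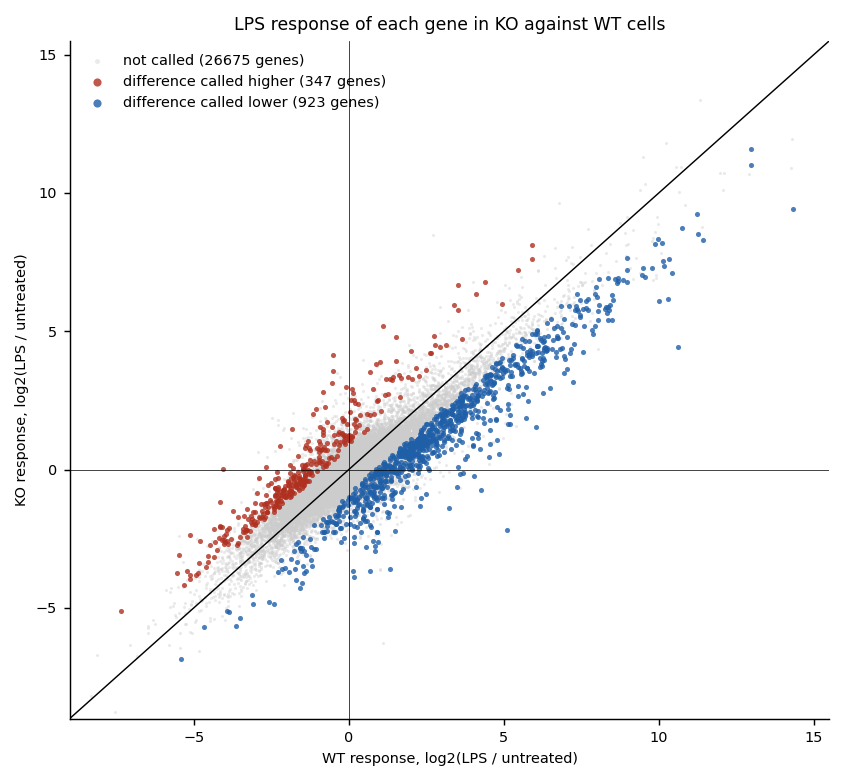
LPS response of each of the 27945 genes in KO cells (vertical axis, log2 LPS over untreated) against that in WT cells (horizontal axis, same unit). Blue points are the 923 genes called lower and red points the 347 called higher in KO cells, and the diagonal marks equal responses. The blue points lie mostly right of the vertical zero line and the red points mostly left of it.

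Receptors and adaptors of the Toll-like receptor pathway came first in the order of signalling. Of 28 measured, 1 responded less in KO cells and 0 more, with a median difference of -0.35 against -0.17 for all genes. That count is near the 3.3% called lower over all genes. Counts of every list below stand beside the same shares over all genes, 3.3% lower and 1.24% higher. The member that passed was Tlr3, the endosomal receptor for double-stranded RNA. Tlr3 was up by 4.64 in WT and by 3.08 in KO cells, a difference of -1.56 ± 0.23 (SE, adjusted p = 0.0275). Tlr4 itself was at 0.00 (95% interval -0.44 to 0.44), its co-receptors Cd14 and Ly96 at 0.20 and -0.77, and the adaptors Myd88 and Ticam1, which encodes TRIF, at -0.63 and -0.44. None of these 5 passed the test.

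Of 14 NF-kappaB subunits and inhibitors, 3 responded less in KO cells and 0 more, against 3.3% and 1.24% of all genes, with a median of -0.55. Nfkbiz, the inducible nuclear inhibitor family member needed for secondary response genes, read -0.15 and -0.05 in WT untreated, 3.14 and 3.50 in WT LPS, 0.70 and 0.47 in KO untreated and 2.37 and 1.94 in KO LPS samples. The KO samples lay above the WT samples without LPS and below them with LPS, a difference in response of -1.86 ± 0.29 (adjusted p = 0.0302). The subunit gene Rel (-1.15) and the nuclear co-regulator gene Bcl3 (-1.11) also responded less. Nfkbia, the classical inhibitor, was at -0.70 and Rela at -0.45, neither called.

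Early response transcription factors showed 6 lower and 1 higher of 28 measured, against 3.3% and 1.24% of all genes, with a median of -0.74. Nr4a1, an orphan nuclear receptor, differed by -1.64 and Egr1 by -1.58, and the stress factor Atf3 by -1.54. Atf3 read 5.67 and 5.75 in WT and 5.73 and 5.57 in KO cells before LPS, then 7.60 and 7.96 in WT against 6.21 and 6.15 in KO cells. The untreated groups overlapped and the LPS groups did not. Batf2 was up 59.9-fold in WT and 18.2-fold in KO cells (difference -1.72). Batf3, a factor of the dendritic cell lineage, was at 0.37 in WT and at -1.93 in KO cells, a difference of -2.30. Bhlhe40 was the member that responded more in KO cells, at 1.16. Jun and Fos were at 0.28 and -0.49 and were not called.

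Of 29 cytokine genes measured, 14 rose less in KO than in WT cells and 0 rose more, against 3.3% and 1.24% of all genes. The median difference was -1.46. Of the 14 lower members, 11 were well above background on all 8 arrays and the others were not. All 14 went up with LPS in both genotypes. Il10, the gene of the anti-inflammatory interleukin 10, read -1.70 and -1.53 in WT untreated, 5.01 and 5.14 in WT LPS, -0.53 and -0.66 in KO untreated and 3.56 and 3.35 in KO LPS samples. KO samples were thus above WT samples at rest and below them with LPS. Il10 was up 103-fold in WT and 16.6-fold in KO cells, a difference of -2.64 ± 0.21 (adjusted p = 0.00965), and stayed called in 5 of the 8 fits without 1 array.

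Other members of the cytokine list differed in where the gap lay. Il15, a growth factor of natural killer and memory T cells, read between -0.19 and -0.13 on all 4 untreated arrays. With LPS it read 5.41 and 5.32 in WT and 3.57 and 3.31 in KO cells, a difference of -1.97 ± 0.19 (adjusted p = 0.0127). The gap thus lay in the LPS samples. Il1b, the secreted pyrogen, showed the other arrangement, at 0.87 and 0.69 in WT and 2.16 and 2.02 in KO cells before LPS and at 9.43 and 9.47 against 8.98 and 9.08 after it. The difference of -1.74 ± 0.19 (adjusted p = 0.015) lay mostly in the untreated state. The gap was larger with LPS in 10 of the 14 cytokines and larger without it in 4. Tnfsf10, the death ligand TRAIL, was at -2.69, the alarmin Il1a at -1.97, the macrophage growth factor Csf1 at -1.90 and Il27 at -1.62.

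Several classical LPS-induced genes did not pass. Tnf read 2.44 and 2.58 in WT untreated, 7.03 and 6.61 in WT LPS, 2.33 and 2.23 in KO untreated and 6.31 and 6.11 in KO LPS samples, a difference of -0.38 (95% interval -0.99 to 0.23, adjusted p = 0.422). Il6 was at -3.37 (-6.03 to -0.70, adjusted p = 0.146) and Il12b at -2.20 (-3.68 to -0.72, adjusted p = 0.103). Both were well above background on only 1 of the 2 WT untreated arrays, and their untreated replicates spread widely, with Il6 at -6.48 and -4.28 in WT. Ptgs2, the inducible prostaglandin synthase, was at -1.97 (adjusted p = 0.0673) and Nos2, the inducible nitric oxide synthase, at -1.09 (adjusted p = 0.0832). Acod1, which makes itaconate, was at -0.41 (adjusted p = 0.278) and turned to 0.18 with quantile normalization. Of the 10 reference genes of the LPS response, Il1b and Il10 were those called.

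The count of cytokines called lower was 12 without WT LPS replicate 1 and 5 without its replicate 2, 2 without KO untreated replicate 1 or 2, 3 and 1 without KO LPS replicates 1 and 2, and 0 without either WT untreated replicate. The median of the list stayed between -1.68 and -1.33 over these 8 fits.

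**Figure D2:**
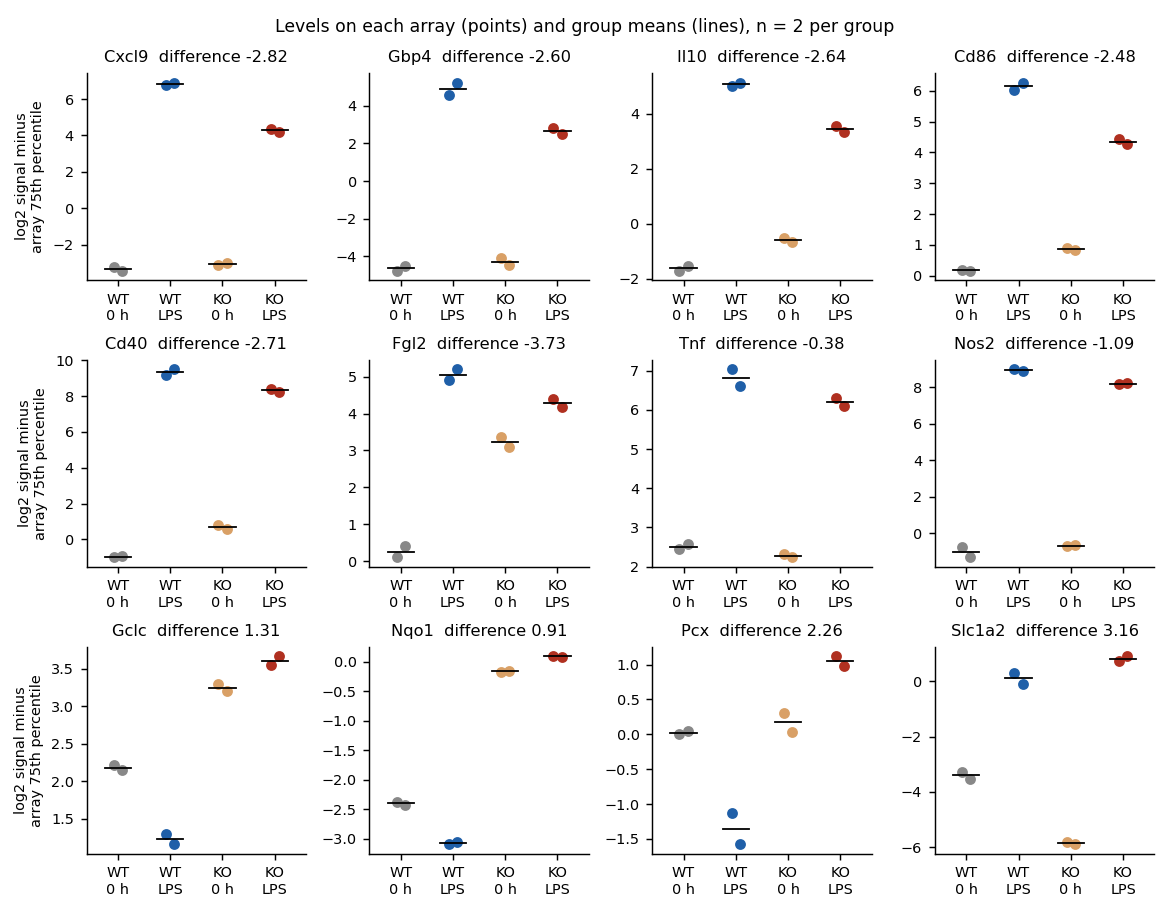
Levels of 12 genes on each array (vertical axis, log2 signal minus the 75th percentile of the array), with points for the 2 arrays of a group and a line at their mean. The number in each title is the difference in LPS response, KO minus WT. Cxcl9, Gbp4 and Cd86 differ between genotypes mainly with LPS, whereas Fgl2 and Slc1a2 differ mainly before it.

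Chemokines split by member. Of 24 measured, 6 responded less and 1 more in KO cells, with a median of -0.71. Cxcl9, the interferon-induced attractant of CXCR3-bearing T cells (probe at chromosome 5, 92752796 to 92752855, mm9), read -3.25 and -3.42 in WT untreated, 6.79 and 6.90 in WT LPS, -3.10 and -3.03 in KO untreated and 4.38 and 4.22 in KO LPS samples. KO samples lay slightly above WT samples at rest and far below them with LPS. Cxcl9 was up 1159-fold in WT and 164-fold in KO cells, a difference of -2.82 ± 0.19 (adjusted p = 0.00869), called in 6 of the 8 fits without 1 array. The monocyte attractants Ccl12 (-2.75) and Ccl7 (-2.43) and the T cell attractant Ccl17 (-2.39) followed. Cxcl5, a neutrophil attractant and the member with a higher response, was well above background on 7 of the 8 arrays and up by 4.40 in WT and by 6.78 in KO cells, a difference of 2.38. Other neutrophil attractants were not called, with Cxcl3 at 1.58, Cxcl1 at 0.84 and Cxcl2 at 0.21. Cxcl10 was at -0.88 (adjusted p = 0.112). The lower chemokines numbered 0 without either WT untreated replicate, 6 and 4 without WT LPS replicates 1 and 2, 1 and 2 without KO untreated replicates 1 and 2, and 2 and 1 without KO LPS replicates 1 and 2. Cxcl5 was called in none of these fits.

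Genes of the interferon chain responded less in KO cells in 8 of 25 cases and more in 0, with a median of -0.88. Ifnb1, the interferon beta gene, was not well above background on any untreated array. With LPS it read 0.06 and 0.23 in WT and -2.43 and -2.55 in KO cells, so that both KO samples were below both WT samples. Its difference in response of -2.41 (95% interval -4.05 to -0.78, adjusted p = 0.104) rests on those dim untreated values and was not called. Irf8, a factor of myeloid differentiation and interferon responses, read 5.66 and 5.53 in WT and 5.70 and 5.74 in KO cells without LPS, then 7.31 and 7.18 in WT and 5.70 and 5.94 in KO cells. It was 3.13-fold up in WT, while the KO groups touched (1.07-fold), a difference of -1.55 ± 0.20 (adjusted p = 0.0224). Irf1 differed by -1.59 and the RNA sensor gene Ifih1 by -1.57. The receptor chains Ifnar1 (0.02) and Ifnar2 (-0.05) and the kinase Jak1 (-0.17) were among those not called. Stat2 was at -0.84, also not called.

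Downstream, the antiviral effectors induced by interferon were lower in 17 of 46 cases and higher in 0, with a median of -1.0 and 44 of the 46 values below 0. Each of the 17 went up in both genotypes and by less in KO cells. Ifit1bl1, a member of the IFIT family of RNA-binding proteins, read -1.61 and -0.92 in WT untreated, 7.13 and 7.31 in WT LPS, -0.86 and -1.66 in KO untreated and 4.22 and 4.07 in KO LPS samples. The untreated groups overlapped and the LPS groups did not. Its difference was -3.07 ± 0.46 (adjusted p = 0.0275), that of its relative Ifit3b -2.07 and that of the nucleotide kinase Cmpk2 -1.88. Usp18, which removes ISG15 and dampens interferon signalling, was at -1.50 ± 0.21 (adjusted p = 0.026). Isg15 itself was at -0.80 and Rsad2 at -0.99, neither called.

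The guanylate-binding proteins and immunity-related GTPases, which attack the vacuoles of intracellular microbes, were lower in 10 of 18 cases and higher in 0. All 18 values were below 0, with a median of -1.53. Gbp4 read -4.75 and -4.53 in WT untreated, 4.58 and 5.23 in WT LPS, -4.09 and -4.46 in KO untreated and 2.84 and 2.51 in KO LPS samples, a difference of -2.60 ± 0.37 (adjusted p = 0.0261). Gbp11 was at -2.41 and Gbp6 at -2.0, although another Gbp6 probe was at 0.99 and not called. In all 10 called members the gap between genotypes was larger with LPS than at rest. Gbp2 and Gbp7 were at -0.51 and -0.64 and were not called. Members of this family, of the IFIT and SERPINA3 families and of the glutathione transferases are similar in sequence, so probes may share signal between them.

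These interferon counts were sensitive to the setting. Over the 46 effectors the lower calls numbered 7 with quantile normalization, 4 with median centring, 0 with spike-in centring and 32 with normexp. Over the 18 GTPases they numbered 9, 7, 5 and 14. Without WT LPS replicate 1 they were 16 and 11, without its replicate 2 they were 1 and 4, and without any 1 of the other arrays both were 0. The medians kept their sign, at -1.05 to -0.86 for the effectors and -1.71 to -1.30 for the GTPases over these 8 fits.

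Promoters of some of these genes are printed to show a known regulatory element, the interferon-stimulated response element, to which interferon-activated transcription factors bind. Its core was searched as GAAA, any 2 bases and GAAA again, on both strands of RefSeq windows (GRCm38.p6) from 250 bases before to 50 bases after the start of each gene. Of the 27 called effectors and GTPases, 16 had a window, and 9 of these held the core. Only called members with the core upstream of the start are printed, so the lines are not typical of the group. Each line gives 50 bases upstream of the start, 5′ to 3′ on the strand of the gene, with the core in capitals. The core reads TTTC, 2 bases and TTTC where it lies on the opposite strand.
Ifit1bl1: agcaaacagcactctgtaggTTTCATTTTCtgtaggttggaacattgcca
Ifit3b: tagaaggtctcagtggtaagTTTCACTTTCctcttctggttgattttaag
Tgtp1: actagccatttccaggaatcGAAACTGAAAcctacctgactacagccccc
Tgtp2: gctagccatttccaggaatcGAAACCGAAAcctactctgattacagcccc
Ddx60: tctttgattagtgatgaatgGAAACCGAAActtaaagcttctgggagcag
The stretches lie at chr19:34602043-34602092, chr19:34607749-34607798, chr11:48992294-48992343, chr11:49064253-49064302 and chr8:61928014-61928063, in that order, with Ifit1bl1, Tgtp1 and Tgtp2 on the minus strand. Tgtp1 and Tgtp2 encode near-identical GTPases and the 2 stretches are alike outside the core as well. The differences in response were -1.97 for Tgtp1, -1.94 for Tgtp2 and -1.64 for the RNA helicase gene Ddx60.

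Genes were counted as holding the core if any of their windows did. It was held by 3.97% of the 13671 tested genes that had a window. Of such genes, 9.7% of those called lower (55 of 567) and 1.81% of those called higher (4 of 221) held it. Among interferon effectors and GTPases with a window, 9 of 16 called members and 19 of 31 members not called held the core, which is 56.2% and 61.3%. Holding the core thus went with being on these lists and not with being called within them.

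**Figure D3:**
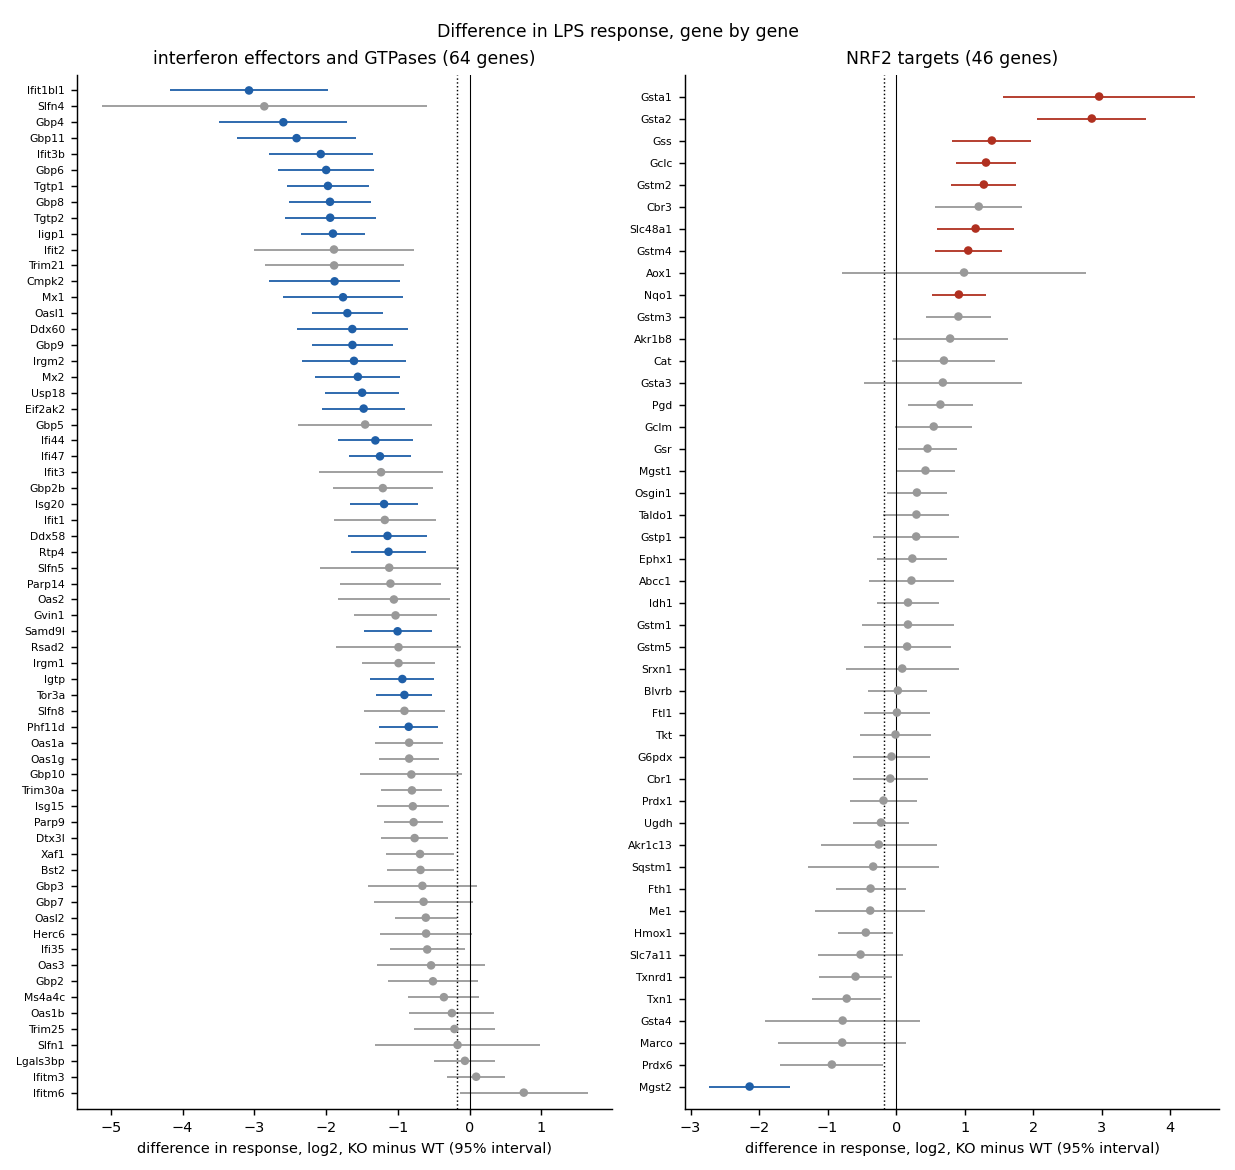
Difference in LPS response, KO minus WT (horizontal axis, log2), of each measured interferon effector and GTPase (left) and NRF2 target (right), with 95% intervals, blue where called lower, red where called higher and grey where not called. The dotted line marks the median of all genes, -0.17. Most interferon genes lie left of it and most NRF2 targets right of it.

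Costimulatory and checkpoint molecules, through which macrophages address T cells, were lower in 7 of 19 cases and higher in 0, with all 19 values below 0 and a median of -0.95. Cd86 read 0.18 and 0.17 in WT untreated, 6.04 and 6.26 in WT LPS, 0.90 and 0.82 in KO untreated and 4.44 and 4.27 in KO LPS samples. It was up 63-fold in WT and 11.3-fold in KO cells, a difference of -2.48 ± 0.20 (adjusted p = 0.00965). Cd40 read -1.01 and -0.95 in WT and 0.82 and 0.57 in KO cells at rest, and 9.20 and 9.48 against 8.37 and 8.24 with LPS. The gap of Cd40 at rest was larger than its gap with LPS, and both went into the difference of -2.71 ± 0.23 (adjusted p = 0.0101). The early activation antigen Cd69 was at -1.96. Cd80, the other CD28 ligand beside CD86, was at -0.40 and not called. Of the 7 lower members, 6 were well above background on all 8 arrays. The median of the list stayed between -0.997 and -0.888 over the 8 fits without 1 array. None of the members named here was called in all of these fits.

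Of 25 antigen presentation genes, 1 was called lower and 0 higher, near the 3.3% and 1.24% of all genes. The median was -0.32, and 24 of the 25 values were below 0. The lower member was H2-DMb1, a chain of the class II peptide-loading chaperone, at -1.02. It read 2.90 and 2.83 in WT and 2.93 and 2.94 in KO cells without LPS, and 2.84 and 2.92 in WT against 2.00 and 1.86 in KO cells with it. Cd74 (0.37), H2-Ab1 (-0.12) and B2m (-0.20) were not called.

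Genes that restrain Toll-like receptor signalling also responded less in KO cells, with 6 lower and 1 higher of 28 and a median of -0.76. Dusp2, a phosphatase of MAP kinases, was up 168-fold in WT and 53.2-fold in KO cells, a difference of -1.66 ± 0.20 (adjusted p = 0.0182). Tnip3 was at -1.50 and Zfp36, which destabilises cytokine mRNAs, at -1.28. Tnfaip3, the A20 gene, was at -0.88 and Socs3 at -0.77, neither called. The lipid phosphatase gene Inpp5d was the higher member, at 1.03, and was down in both genotypes.

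Receptors for cytokines and chemoattractants were lower in 8 of 30 cases and higher in 0, with a median of -0.43. In 5 of the 8 the larger gap was in the untreated state. The formyl peptide receptor Fpr2 read 0.23 and 0.39 in WT and 2.46 and 2.29 in KO cells without LPS, and 7.17 and 7.15 against 7.54 and 7.42 with it. KO samples were above WT samples in both states, and by more at rest, which gave a difference of -1.75 ± 0.19 (adjusted p = 0.015). Fpr1 behaved likewise (-1.75). Ccr7, which guides dendritic cells to lymph nodes, was at -1.58 and Il4ra at -1.54. Among enzymes of nitric oxide, arginine, itaconate and prostaglandins, 1 of 28 was higher and 1 lower, against 1.24% and 3.3% of all genes, so that the lower count is near the background. The arginine transporter Slc7a2 was up by 5.91 in WT and by 7.62 in KO cells (difference 1.71 ± 0.21, adjusted p = 0.0204), and the superoxide dismutase Sod2 was at -1.04.

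**Figure D4:**
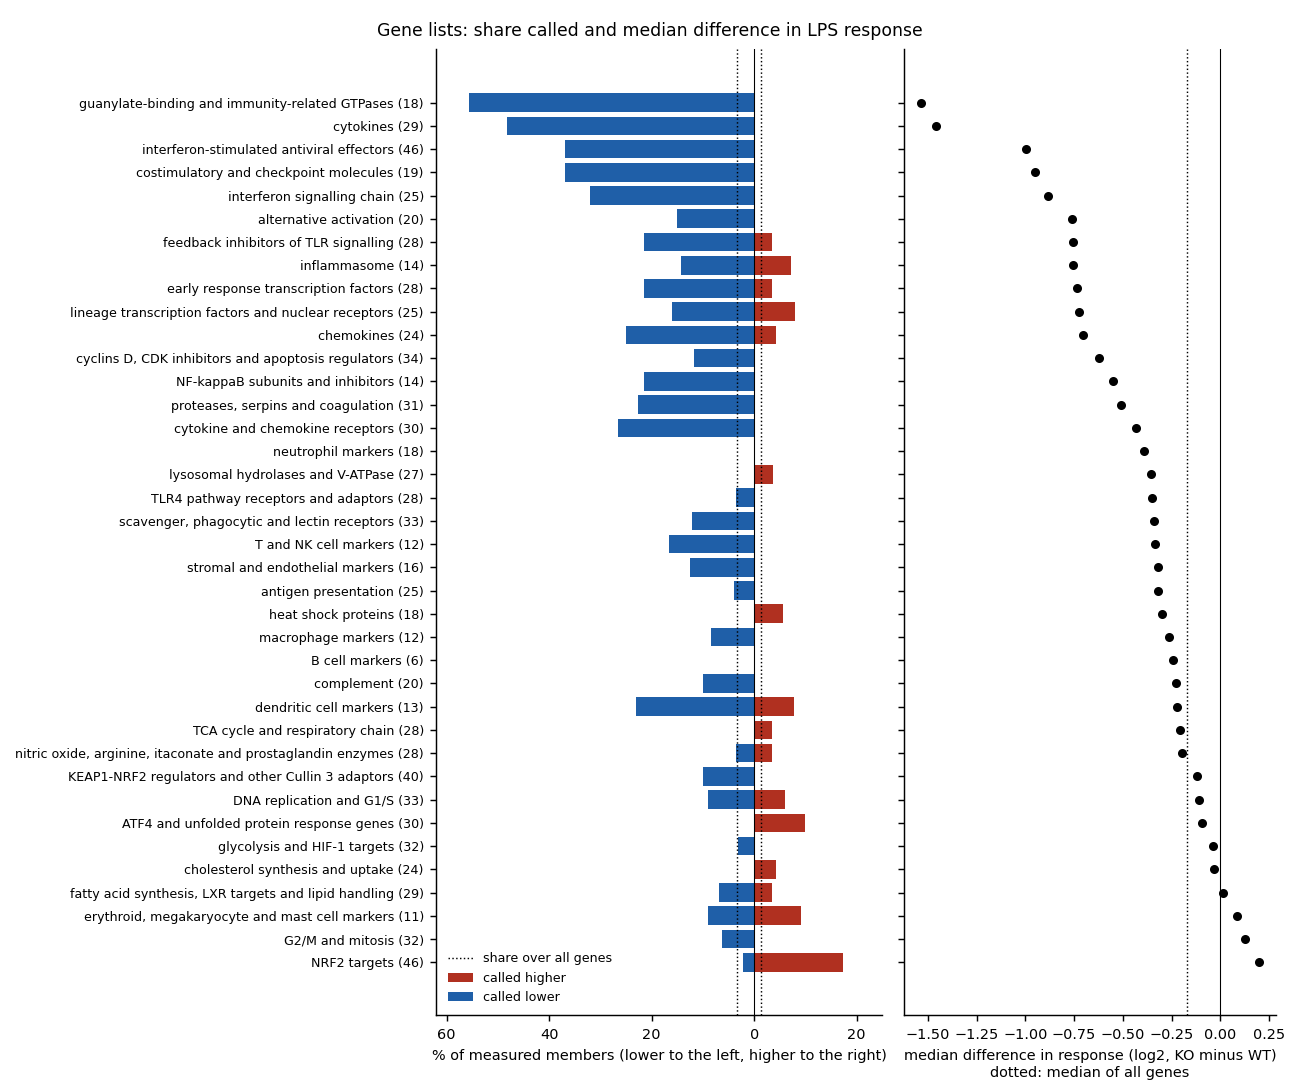
Share of the measured members of each gene list called lower (blue, to the left) or higher (red, to the right) in KO cells (horizontal axis of the left panel, percent), and median difference of the list (right panel, log2). Dotted lines mark the shares over all genes, 3.3% lower and 1.24% higher, and the median of all genes, -0.17. Guanylate-binding proteins and cytokines have the largest shares called lower and NRF2 targets the largest share called higher.

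NRF2 targets went against this direction. Of 46 measured, 8 responded more and 1 less in KO cells, against 1.24% and 3.3% of all genes, and the median was 0.20. Of the 8, 6 were well above background on all 8 arrays, and Gsta1 and Gsta2 were not. Of the 6 well above background throughout, 4 were down with LPS in WT and up in KO cells. In all 6 the gap between genotypes was larger with LPS than without it. Gclc, the catalytic subunit of the rate-limiting enzyme of glutathione synthesis, read 2.22 and 2.15 in WT untreated, 1.30 and 1.16 in WT LPS, 3.30 and 3.20 in KO untreated and 3.55 and 3.67 in KO LPS samples. KO samples were above WT samples in both states and further above with LPS. The difference in response was 1.31 ± 0.18 (adjusted p = 0.0251). Gss, which completes glutathione, read 0.86 and 0.73 in WT and 1.08 and 0.95 in KO cells at rest, and -0.28 and -0.05 against 1.62 and 1.29 with LPS, a difference of 1.40 ± 0.24 (adjusted p = 0.0355).

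Further members that responded more were the quinone reductase Nqo1 (0.91), the haem transporter Slc48a1 (1.16) and the glutathione transferases Gstm2 (1.28) and Gstm4 (1.05). Another Gstm4 probe was at 0.05 and not called. Nqo1 went from -2.37 and -2.43 to -3.09 and -3.04 in WT cells and went from -0.17 and -0.15 to 0.09 and 0.09 in KO cells, so the genotypes moved apart in opposite directions. Gsta1 (2.96) and Gsta2 (2.86) were not well above background on any WT array, nor Gsta2 in KO untreated samples, so the size of these differences is not measured. The microsomal transferase Mgst2 was the member that responded less. It went from 0.37 and 0.00 to 1.18 and 1.45 in WT and from 2.55 and 2.55 to 1.56 and 1.51 in KO cells, a difference of -2.14 ± 0.24 (adjusted p = 0.0173). Hmox1 (-0.44), Slc7a11 (-0.52), Txnrd1 (-0.59) and Gclm (0.55) were not called.

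Higher calls among NRF2 targets numbered 9 with quantile normalization, 9 with median centring, 3 with spike-in centring and 10 with normexp. They numbered 9 without WT LPS replicate 1, 1 without its replicate 2 and 0 without any 1 of the other 6 arrays. The antioxidant response element core was searched as TGACNNNGC on both strands of the same windows. They run from 250 bases before to 50 bases after the start, so an element further away was not seen. It was held by 15.9% of the tested genes that had a window. Among NRF2 targets with a window, 0 of 6 called higher and 11 of 32 not called held it.

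Among the genes listed as regulators of NRF2 or as possible adaptors of Cullin 3, 4 of 40 were lower and 0 higher. Over all genes 3.3% were lower and 1.24% higher. The median of the list was -0.12. Bach1, the repressor that competes with NRF2 for its binding sites, read 3.92 and 3.74 in WT untreated, 4.02 and 4.54 in WT LPS, 4.27 and 4.38 in KO untreated and 3.21 and 2.80 in KO LPS samples. It was at -1.32 with LPS in KO cells and was at 0.45 in WT cells, a difference of -1.77 ± 0.32 (adjusted p = 0.0382). Its small MAF partner Mafk was at -1.27. Kctd12 and Enc1, also on this list, were at -1.56 and -1.42. Keap1 (-0.41), Nfe2l2, which encodes NRF2 (-0.43), and Rbx1, the RING partner of Cullin 3 (-0.12), were not called.

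Metabolic lists gave few calls, and over all genes 1.24% were called higher and 3.3% lower. The LPS-induced cholesterol 25-hydroxylase Ch25h, whose product acts against viruses, read -0.85 and -0.79 in WT and -0.24 and -0.27 in KO cells without LPS, and 7.39 and 7.53 against 5.60 and 5.47 with it. The difference was -2.49 ± 0.18 (adjusted p = 0.00869), called in 6 of the 8 fits without 1 array. The sterol synthesis enzyme Mvd was the called member of 24 sterol genes. It was at -3.57 in WT and at -1.71 in KO cells, a difference of 1.86 ± 0.17 (adjusted p = 0.0124). Scd2, a fatty acid desaturase, was down in both genotypes and less so in KO cells (1.85). Pcx, the pyruvate carboxylase that feeds the citric acid cycle, read 0.00 and 0.05 in WT untreated, -1.14 and -1.58 in WT LPS, 0.31 and 0.04 in KO untreated and 1.12 and 0.98 in KO LPS samples. It was thus down with LPS in WT and up in KO cells, a difference of 2.26 ± 0.27 (adjusted p = 0.0182). The glucose transporter Slc2a1 was at -1.07 and was the called member of 32 glycolysis and hypoxia genes, a count near the share over all genes.

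Of 30 ATF4 targets and genes of the unfolded protein response, 3 responded more and 0 less in KO cells, against 1.24% and 3.3% of all genes. The median was -0.09, near the -0.17 of all genes. They were the glycine transporter Slc6a9 (1.40), Phgdh, the first enzyme of serine synthesis (1.10), and the seryl-tRNA synthetase Sars (0.90). Phgdh read -0.32 and -0.14 in WT and -1.38 and -1.45 in KO cells without LPS, and between -0.36 and -0.13 in all 4 LPS samples, so that the gap lay at rest and the groups overlapped with LPS.

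Of 33 genes of DNA replication, 2 were higher and 3 lower, and of 32 genes of mitosis, 0 and 2. Over all genes 1.24% were called higher and 3.3% lower, and the median of the mitosis list was 0.13. Of 34 D-type cyclins, cyclin-dependent kinase inhibitors and apoptosis regulators, 0 were higher and 4 lower (Ccnd1, Gadd45g, Bcl2a1d and Casp8), with a median of -0.62 and 29 of the 34 values below 0. Ccnd1, cyclin D1, read 3.92 and 3.75 in WT and 3.81 and 3.74 in KO cells at rest, and 2.66 and 2.55 in WT against 0.35 and 0.64 in KO cells with LPS. It was at -3.28 with LPS in KO cells and at -1.23 in WT cells, a difference of -2.05 ± 0.22 (adjusted p = 0.015). The response of Gadd45g, a growth arrest gene, was 2.16 in WT and -0.62 in KO cells, a difference of -2.79 ± 0.20 (adjusted p = 0.00869). Tk1, thymidine kinase, was down less in KO cells (1.12) and the replication factor Mcm10 was at -1.44. Of 14 inflammasome genes 1 was higher and 2 lower, namely the sensor Nlrc4 (1.55), the interleukin 18 inhibitor Il18bp (-2.48) and the DNA sensor Aim2 (-1.30).

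Secreted proteases, serpins and coagulation factors were lower in 7 of 31 cases and higher in 0, with a median of -0.51. Thrombospondin Thbs1 read 0.38 and 0.54 in WT untreated, 5.15 and 5.29 in WT LPS, 4.59 and 4.70 in KO untreated and 6.72 and 6.24 in KO LPS samples. It was already near its WT LPS level in resting KO cells, and its response was 1.83 there against 4.76 in WT cells (difference -2.93 ± 0.27, adjusted p = 0.0126). Serpina3g showed the other arrangement, at -3.82 and -3.66 in WT and -3.08 and -3.58 in KO cells without LPS and at 6.72 and 6.65 against 3.97 and 3.54 with it. It was up by 10.42 in WT and by 7.09 in KO cells (difference -3.34 ± 0.32, adjusted p = 0.0126). Serpina3i was at -3.52.

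The genes with the largest differences came from many classes. Below 0, among genes well above background on all 8 arrays, the lectin receptor gene Cd209f (-4.93), the haemoglobin gene Hbb-bt (-3.77), Fgl2 (-3.73), Asb4 (-3.42), Bank1 (-3.36), coagulation factor F8 (-3.35), the adhesion gene Jaml (-3.29) and Ell3 (-3.12) joined those already named. Another Asb4 probe was at -0.47 and not called. Cd209f was at -5.63 and -5.82 in WT and -0.73 and -0.55 in KO cells before LPS, then -4.74 and -4.05 in WT and -3.56 and -4.93 in KO cells. Its groups were far apart at rest and overlapped with LPS.

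Above 0, Serinc2 (probe at chromosome 4, 129930742 to 129930801, mm9) read -4.58 and -4.54 in WT untreated, -4.83 and -5.37 in WT LPS, -5.27 and -5.10 in KO untreated and -1.87 and -2.23 in KO LPS samples. Its response was 3.14 in KO and -0.54 in WT cells, a difference of 3.68 ± 0.31 (adjusted p = 0.0101), and its other probes were at 3.32, called, and 1.13, not called. Susd2 (3.09), Ccdc144b (2.36) and Six5 (2.20) were likewise up in KO cells (by 2.99, 2.51 and 2.41), with WT responses of -0.10, 0.16 and 0.21. Map2k6, a kinase upstream of p38, was at -2.67 in WT and was at 0.08 in KO cells (difference 2.76). Lrfn4 (2.77), Tmem273 (2.36) and Soga1 (2.22) were down in both genotypes and less so in KO cells. Other probes for Soga1 were at 0.72 and 0.25, neither called. Wscd2 (2.57) was up in both genotypes and more so in KO cells, and Kctd1 (2.30) was down in WT and up in KO cells. Slc1a2, a glutamate transporter, was at 3.16, while a second probe for it, not called, gave -1.89.

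Markers of other cells were set beside these results. The summed level of 18 neutrophil markers, relative to the 75th percentile, was 53.1 and 55.6 in WT untreated, 235 and 209 in WT LPS, 91.1 and 86.5 in KO untreated and 360 and 373 in KO LPS samples. It was higher in KO than in WT samples in both states, and none of the 18 had a called difference in response (median -0.39). Its part in the results above was not tested. Dendritic cell markers summed to 271 to 311 without LPS, 521 and 545 in WT LPS and 469 and 476 in KO LPS samples, with 3 of 13 lower (Batf3, Ccr7 and Clec9a) and 1 higher (Cd24a). Clec9a was well above background in WT LPS samples only. B cell markers summed to no more than 1.54 on any array. T and NK cell markers summed to 13.2 to 41.7 on 7 arrays and to 85.9 on KO untreated replicate 1, where Cd8a alone gave 73.4 of it and the rest 12.6. Without Cd8a the sum was lower in KO cells in both states. It was 20.4 and 24.2 in WT and 12.6 and 13.2 in KO untreated, and 38.7 and 41.6 against 20.3 and 16.5 with LPS. Of these 12 markers Lck (-2.0) and Klra8 (-1.91, not well above background on any WT array) were called lower. The haemoglobin gene Hbb-bt and Kit (1.57) were the called members of 11 erythroid, megakaryocyte and mast cell markers, and Cdh5 (-1.80) and Emcn (-3.71, well above background only in KO untreated samples) those of 16 stromal and endothelial markers. The macrophage markers had 1 called member of 12, Mertk, at -1.53. Summed levels of 3 further lists also differed by genotype in both states. Macrophage markers summed to 1183 and 1090 in WT untreated, 1051 and 850 in KO untreated, 1685 and 1664 in WT LPS and 1469 and 1454 in KO LPS samples. The erythroid, megakaryocyte and mast cell markers were higher in KO cells, at 70.5 and 66.4 in WT and 97.4 and 92.8 in KO untreated, and at 114 and 93.8 against 168 and 158 with LPS. The stromal and endothelial markers were lower in KO cells, at 23.6 and 23.5 in WT and 16.1 and 16.3 in KO untreated, and at 35.4 and 40.5 against 28.1 and 28.1 with LPS. The part of these lists and of the T and NK cell markers in the results above was not tested.

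**Figure D5:**
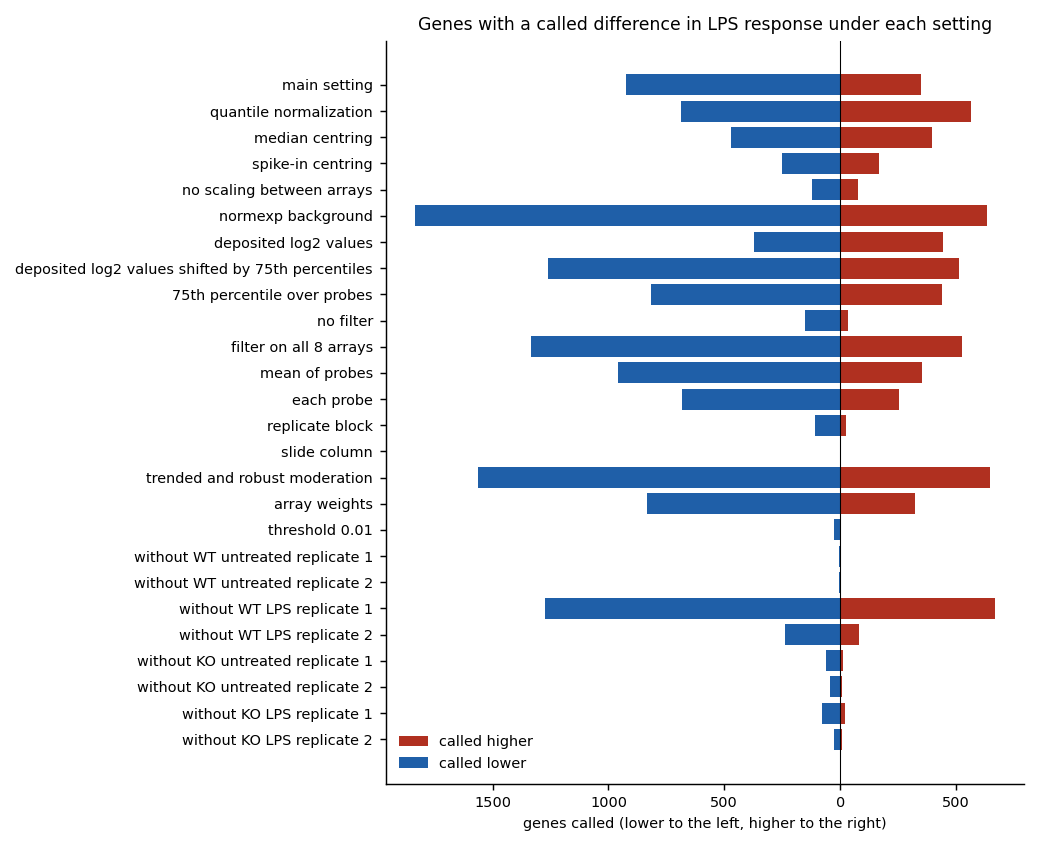
Number of genes called higher (red, to the right) and lower (blue, to the left) in KO cells (horizontal axis) under each setting of the analysis (rows). The main setting gives 347 and 923, quantile normalization 563 and 688, and the fits without 1 array between 0 and 670 higher and between 4 and 1275 lower.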

How the data were processed

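RNA of 8 samples of bone marrow-derived macrophages (2 per group, 4 groups) was hybridised to 1-colour Agilent arrays. The authors' scanner output holds intensities that, per the submitters' processing notes, come from Agilent Feature Extraction (version 10.7.3.1). Background was subtracted and the signal detrended, per the file headers, with dim spots replaced by surrogates and no scaling between arrays. The authors also deposited a value table of 26670 probes, read here as log2 from its match to the scanner signal (r at the lowest 0.996, on KO LPS replicate 2). Its array medians are 10.94 and 11.10 (WT untreated), 10.67 and 10.73 (WT LPS), 11.11 and 11.03 (KO untreated) and 10.85 and 10.71 (KO LPS). It shows neither scaling nor centring and runs in the same direction as the signal, while the rule that chose its probes is unknown.

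Control spots were left out, log2 signal was taken minus the 75th percentile of each array, and spots were averaged to 55681 probes. Of these, 26056 were named by accession, 3200 by symbol and 930 by synonym through RefSeq, and 25495 kept the name in the files. The filter kept 39833 probes, those that in 1 group or more were well above background on both of its arrays, spots with outlier marks left out, and the brightest probe stood for each of 27945 genes. For 448 genes at least 1 array had no value and the fit used the others.

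A mean per group was fitted with limma 3.58.1 in R 4.3.3 (4 residual and 2.41 prior degrees of freedom), and the difference of the LPS responses was called at a Benjamini-Hochberg adjusted p under 0.05. All adjusted p-values are over all genes tested. Values after ± are standard errors. Replicates correlated at 0.992 to 0.995, and the number of arrays limits the precision. The fit was tested on simulated data.

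Named are Cul3, 10 reference genes of the LPS response, the 12 largest called differences each way among genes well above background on all 8 arrays, up to 3 called members of each of 38 lists, and 22 genes chosen after their values were seen. A few genes under this rule are not reported here. Values of uncalled list members are given for contrast. Members and lists were chosen with earlier results of these data known. Alternatives changed the scaling, background correction, deposited values, filter, choice of probe, blocks, moderation, array weights, threshold and arrays. 2 of them, the deposited values shifted by 75th percentiles and the percentile over probes, were chosen after seeing the data. Promoter windows are those of RefSeq GRCm38.p6, and probe positions those of mm9 in the files.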

Additional observations from a re-analysis of the deposited data

Results flagged for a closer look

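Each gene given here passed limma's test of the difference between the LPS responses of the genotypes itself, at an adjusted p under 0.05 over all genes. In all, 347 genes passed it with a higher and 923 with a lower response in KO cells, and these counts were not themselves tested. Values are log2 differences, KO minus WT.

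Among cytokines, chemokines and their receptors the differences were -1.74 for Il1b, -2.64 for Il10, -2.69 for Tnfsf10, -1.97 for Il15, -1.97 for Il1a, -1.90 for Csf1 and -1.62 for Il27. They were -2.82 for Cxcl9, -2.75 for Ccl12, -2.43 for Ccl7 and -2.39 for Ccl17, while Cxcl5 stood on the other side at 2.38. The chemoattractant receptors Fpr1 and Fpr2 were both at -1.75, Ccr7 at -1.58 and Il4ra at -1.54. Socs2, an inhibitor of cytokine receptors, was at -2.0.

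Signalling genes and transcription factors with a lower response were Tlr3 (-1.56), Nfkbiz (-1.86), Rel (-1.15), Bcl3 (-1.11), Dusp2 (-1.66), Tnip3 (-1.50), Zfp36 (-1.28), Nr4a1 (-1.64), Egr1 (-1.58), Atf3 (-1.54), Batf2 (-1.72), Batf3 (-2.30), Nfil3 (-1.59) and Maf (-1.30). Bhlhe40 (1.16) and Inpp5d (1.03) had a higher one.

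In the interferon chain and among its effectors, Irf1 was at -1.59, Irf8 at -1.55, Ifih1 at -1.57, Usp18 at -1.50, Ifit1bl1 at -3.07, Ifit3b at -2.07, Cmpk2 at -1.88 and Ddx60 at -1.64. The GTPases Gbp4, Gbp6 and Gbp11 were at -2.60, -2.0 and -2.41, and Tgtp1 and Tgtp2 at -1.97 and -1.94. The surface molecules Cd40, Cd86 and Cd69 were at -2.71, -2.48 and -1.96, and the class II chaperone chain H2-DMb1 at -1.02.

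Among NRF2 targets the higher members were Gclc (1.31), Gss (1.40), Nqo1 (0.91), Gstm2 (1.28), Gstm4 (1.05), Slc48a1 (1.16), Gsta1 (2.96) and Gsta2 (2.86), and the lower one was Mgst2 (-2.14). Gsta1 and Gsta2 were not well above background on any WT array, so the size of their differences is not measured. The NRF2 competitor Bach1 was at -1.77, its partner Mafk at -1.27, and Kctd12 and Enc1 at -1.56 and -1.42.

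Metabolic genes with a higher response were the arginine transporter Slc7a2 (1.71), Mvd of sterol synthesis (1.86), the desaturase Scd2 (1.85), pyruvate carboxylase Pcx (2.26), the glycine transporter Slc6a9 (1.40), Phgdh of serine synthesis (1.10) and the tRNA synthetase Sars (0.90). Lower were the cholesterol hydroxylase Ch25h (-2.49), the ubiquitin ligase of the LDL receptor Mylip (-0.93), the glucose transporter Slc2a1 (-1.07) and the mitochondrial dismutase Sod2 (-1.04).

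Of the cell cycle, survival and inflammasome genes, Mcm10 was at -1.44, Tk1 at 1.12, Cenpe at -2.36, Tpx2 at -1.81, Gadd45g at -2.79, Ccnd1 at -2.05, Bcl2a1d at -1.69, Il18bp at -2.48, Nlrc4 at 1.55 and Aim2 at -1.30. Tfeb, a factor of lysosomal genes, was at 1.25, and the chaperone gene Dnajb3, not well above background in KO untreated samples, at 1.41.

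Receptors and secreted proteins with a lower response were Cd209f (-4.93), Fcgr4 (-1.63), Mertk (-1.53), Thbs1 (-2.93), Serpina3g (-3.34), Serpina3i (-3.52), F8 (-3.35), C3 (-1.23) and Serping1 (-1.20). Markers of other cells with a call were Hbb-bt (-3.77), Lck (-2.0), Klra8 (-1.91), Kit (1.57), Cdh5 (-1.80), Emcn (-3.71), Clec9a (-4.29) and Cd24a (0.93). Klra8, Emcn and Clec9a were not well above background in every group, so the size of their differences is not measured. The remaining large differences were Fgl2 (-3.73), Asb4 (-3.42), Bank1 (-3.36), Jaml (-3.29), Ell3 (-3.12) and Cdhr3 (-7.28, not well above background in WT untreated and KO LPS samples) below 0. Above 0 they were Serinc2 (3.68), Slc1a2 (3.16), Susd2 (3.09), Lrfn4 (2.77), Map2k6 (2.76), Wscd2 (2.57), Tmem273 (2.36), Ccdc144b (2.36), Kctd1 (2.30), Soga1 (2.22) and Six5 (2.20).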

How the results depend on the processing

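The count of genes called depended on the setting. None of the 1270 called genes changed sign with quantile normalization, median or spike-in centring or no scaling. Centring and no scaling shift nearly all differences alike, with the median over all genes moving from -0.17 to 0.10 at most. The smallest called difference was 0.81, so these settings could hardly change a sign. No sign changed with 1 array left out either, but those fits share their arrays with the main fit. Signs changed for 12 genes with normexp, 6 with the mean of probes and 2 with no filter. They changed for 2 with the deposited values shifted, 1 with the deposited values and 1 with the filter on all 8 arrays. Genes called higher in KO cells numbered 347 in the analysis reported, 563 with quantile normalization, 168 with spike-in centring, 78 with no scaling, 633 with normexp, 34 with no filter, 526 when probes had to be well above background on all 8 arrays, 647 with trended and robust moderation and 4 at a threshold of 0.01. Genes called lower numbered 923 in the analysis reported, 471 with median centring, 253 with spike-in centring, 122 with no scaling, 1836 with normexp, 373 in the deposited values, 150 with no filter, 1562 with trended and robust moderation and 28 at 0.01. Apart from the replicate block and slide column, given next, and the arrays left out, the remaining counts stayed within 1.5 times, among them both alternatives chosen after seeing the data, which gave 515 and 1261 (deposited values shifted) and 440 and 817 (percentile over probes). With 1 array left out the counts ran from 0 to 670 higher and from 4 to 1275 lower, lowest without WT untreated replicate 1 and highest without WT LPS replicate 1, and the arm with 1 sample was assumed to vary like the others. The cause was not tested.

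The deviations of same-numbered samples correlated at -0.19 to 0.03 between groups. These correlations cannot decide whether the replicate numbers pair the samples, since each group held too few arrays. With the replicate block limma called 24 genes higher and 110 lower, all among those called without it, and 45 of the 132 named results kept their side of the threshold. With slide column as a covariate it called 0 in each direction, with 4453 at an unadjusted p under 0.05.

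Of the named differences, Cul3 turned from -0.13 to 0.049 (quantile), 0.031 (median centring), 0.057 (spike-in), 0.15 (no scaling) and 0.10 (deposited values), and Acod1 from -0.41 to 0.18 (quantile). Dnajb3 turned from 1.41 to -0.68 with normexp (adjusted p = 0.0390), its KO untreated arrays not being well above background. All 122 named genes with a call kept their sign in the 8 fits without 1 array, none was called in all 8, Cdhr3 was called in 7 and 7 genes in none (Rel, Cmpk2, Ccr7, Slc48a1, Il1a, Cxcl5 and Clec9a). With WT LPS replicate 1 left out 125 of the 132 kept their side of the threshold, with its replicate 2 left out 66, and with any 1 of the other arrays left out 10 to 37. Signal near background limits what can be said of dim genes, since the size of a difference is not measured where a group is not well above it.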

Other observations

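Regulators of the macrophage and dendritic cell lineages that the labels do not single out also differed in their response. Of 25 lineage transcription factors and nuclear receptors, 2 responded more (Cebpa at 1.30 and Nr1d1 at 1.19) and 4 less in KO cells (Irf8, Maf, Nfil3 and Vdr), against 1.24% and 3.3% of all genes, with a median of -0.72. Cebpa, a factor of granulocyte and monocyte development, was down by a mean log2 change of -5.12 in WT and -3.82 in KO cells. Vdr, the vitamin D receptor gene, was at 2.52 in WT and 0.49 in KO cells, a difference of -2.03. Of 20 genes of alternative activation, 3 responded less (Ccl17, Socs2 and Il4ra) and 0 more, with a median of -0.76. Of 33 scavenger, phagocytic and lectin receptors, 4 responded less (Cd209f, Fcgr4, Mertk and Timd4) and 0 more, with a median of -0.34. Timd4, a receptor for phosphatidylserine on dying cells, was up by 6.20 in WT and by 4.69 in KO cells. Of 20 complement genes, 2 responded less (C3 and Serping1), of 27 lysosomal genes 1 responded more (Tfeb) and of 18 heat shock genes 1 responded more (Dnajb3). Over all genes 1.24% were called higher and 3.3% lower.

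The largest called difference among the named genes was that of Cdhr3, a cadherin-related gene whose probe lies on chromosome 12 at 33718663 to 33718722 (mm9). It read -8.75 and -9.15 in WT untreated, -3.94 and -3.75 in WT LPS, -6.74 and -5.92 in KO untreated and -8.43 and -8.60 in KO LPS samples. It was thus up with LPS in WT and down in KO cells, and not well above background in WT untreated and KO LPS samples, so the size of -7.28 (adjusted p = 0.00869) is not a measured one.

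The Cd8a probe read 6.20 on KO untreated replicate 1 and -7.49 to -6.04 on the other 7 arrays. Its difference in response of -7.36 was not called (adjusted p = 0.43). The summed level of T and NK cell markers on that array, 85.9, was 12.6 without Cd8a, below the 13.2 to 41.6 of the other arrays counted the same way.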
